A study of Sus scrofa with 12 samples.

Results

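The plasminogen activators, their receptor, their inhibitors and the surface complex that binds plasminogen were followed in porcine arterial endothelial cells (ECs) under aneurysmal and physiological wall shear stress. The members were taken by gene symbol: PLAU, PLAUR, PLAT, SERPINE2, SERPINB2, ANXA2 and S100A10, which are 7 of the 21153 genes in the count table. All 7 carried reads in every library and passed the filter on low counts in each comparison. Primary ECs of 3 donors were kept for 48 h at 2, 30 or 80 dyne/cm2. Each donor gave 1 culture at 2, 1 at 80 and 2 at 30 dyne/cm2, so that 12 libraries were sequenced and the physiological condition has set 1 and set 2. All groups shared the medium (DMEM with fetal calf serum and heparin) and the gelatin coating, and none carried a genetic change or a drug. The deposited labels describe the cells as aortic and place the low and supra-high experiments in different flow slides with different seeding densities, each with 30 dyne/cm2 controls in its own slide, whereas the methods name coronary arteries of 8-month-old pigs and a single slide type. Low shear stress was compared with set 1 and supra-high shear stress with set 2. The labels do not say which set belongs to which experiment, so fitted values and ratio changes against the other set are given as well. With an adjusted p under 0.05 and at least a 2-fold change, edgeR called 246 genes at 80 dyne/cm2 against set 2. Against set 1 it called 24. At 2 dyne/cm2 it called 1078 against set 1 and 867 against set 2. The published gene counts lie nearer to those of the pairing used here, although the filter on low counts differed. A comparison with the other set may therefore cross slides and seeding densities, and the pairing itself was not tested. Flow was steady and laminar, not pulsatile, which limits the cultures as a model of an artery.

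Total counts per library ranged from 29606854 to 41058902. The 8 endothelial markers with a symbol in the table, among them PECAM1 and CDH5, summed to 4869 to 8579 CPM (counts scaled to the size of the library) in each library, against 3.40 to 13.6 CPM for 9 smooth muscle and mural markers, with DES at 0 in all libraries. The 6 fibroblast markers summed to at most 221 CPM, with COL1A2 alone at up to 204 CPM and DPT at 0, and 7 leukocyte markers to 8.32 to 11.6 CPM at 2 dyne/cm2, 15.4 to 22.9 in set 1, at most 24.3 in set 2 and 13.9 to 28.7 at 80 dyne/cm2. The leukocyte sum came mainly from CD68, with PTPRC and CD3E at 0 in all but the libraries at 80 dyne/cm2, where they had at most 2 counts. The mural sum was 6.71 to 13.6 CPM at 2 dyne/cm2 and 4.01 to 7.26 in set 1. The part of these shifts in the results at 2 dyne/cm2 was not tested. VWF and CLDN5 had no row with that symbol, and of 4 epithelial and mesothelial markers only EPCAM had one, with at most 0.129 CPM. The endothelial sum was 4869 to 5845 CPM at 2 dyne/cm2, 6941 to 8005 in set 1, 6527 to 7697 in set 2 and 8397 to 8579 at 80 dyne/cm2. Within it PECAM1 had a mean of 1960 CPM at 2 dyne/cm2 and 3222 in set 1 and TEK 65.5 and 499, while CDH5 had 1695 and 1841 and ROBO4 236 and 169. The sum was thus lower at 2 and higher at 80 dyne/cm2. So were PLAU, PLAUR, PLAT, SERPINE2, ANXA2 and S100A10 against their own control sets in group means. The part of the sum in their changes was not tested. In bulk RNA, fewer cells that use a gene and less RNA of it per cell cannot be told apart.

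Plasminogen circulates as an inactive precursor and is cut to the protease plasmin, which dissolves fibrin and degrades matrix proteins. Urokinase (PLAU) does this at the cell surface, where it is held by its receptor (PLAUR), while tissue plasminogen activator (PLAT), a secreted product of endothelium, works best on fibrin. Serpins trap the activators in inactive complexes. Annexin A2 (ANXA2) and its small partner S100A10 form a complex on the endothelial surface that binds plasminogen and tissue plasminogen activator.

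At 2 vs. 30 dyne/cm2, PLAU, PLAUR, SERPINE2 and S100A10 were down-regulated at least 2-fold, PLAT and ANXA2 fell by less, and SERPINB2 did not pass the test. Calls required an adjusted p under 0.05 and at least a 2-fold change in a fit with a donor term. The 4 members down-regulated compare with 4.54% of the 11226 genes tested, and with the adjusted p alone 6 members were lower, where 12.4% of all genes were. The median log2 fold change was -1.65 over the 7 members and 0.00 over all genes tested. In 6 of the 7 members the 3 libraries at 2 dyne/cm2 lay below the 3 of set 1, a separation in either direction seen in 37.8% of all genes.

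PLAU (ENSSSCG00000010312, chromosome 14, 76629313 to 76635173) had 75.9, 111 and 22.9 CPM at 2 dyne/cm2 in replicates 1, 2 and 3, against 679, 914 and 247 CPM in set 1. Replicate 2 was the highest and replicate 3 the lowest in both groups, and the groups did not overlap. The log2 fold change was -3.19 (standard error 0.12, edgeR quasi-likelihood test, adjusted p = 0.00187), a 9.16-fold decrease. Against set 2, with 285, 424 and 135 CPM, the log2 fold change was -2.12 (standard error 0.15, edgeR, adjusted p = 0.00495).

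PLAT (ENSSSCG00000007032, chromosome 17, 11195599 to 11223821) had 205, 229 and 155 CPM at 2 dyne/cm2 and 282, 327 and 353 CPM in set 1. Every donor was lower at 2 dyne/cm2, and replicate 3 had the largest difference. The log2 fold change was -0.70 (standard error 0.17, edgeR, adjusted p = 0.0386). Against set 2 it was -0.31 (edgeR, adjusted p = 0.0502), and without the donor term (no replicate block) the adjusted p against set 1 was 0.0524. Without replicate 2 the adjusted p was 0.0772.

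PLAUR (ENSSSCG00000032434, chromosome 6, 50489773 to 50505453), the glycolipid-anchored receptor of urokinase, had 28.3, 32.0 and 11.0 CPM at 2 dyne/cm2 and 131, 163 and 176 CPM in set 1. The groups did not overlap, and the within-donor log2 changes were -2.21, -2.35 and -4.00, so that replicate 3 stood apart from the other donors. The fit gave -2.81 (standard error 0.39, edgeR, adjusted p = 0.0119). Against set 2 the log2 fold change was -1.72 (edgeR, adjusted p = 0.0183).

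SERPINE2 (ENSSSCG00000016233, chromosome 15, 125748383 to 125777788), also called protease nexin-1, inhibits thrombin, plasmin and both activators. It had 51.0, 84.8 and 63.9 CPM at 2 dyne/cm2 and 469, 761 and 1096 CPM in set 1, with no overlap. Its log2 fold change of -3.47 (standard error 0.23, edgeR, adjusted p = 0.00379) was the largest of the 7 members. The value against set 2 was -2.71 (standard error 0.10, edgeR, adjusted p = 0.00336).

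SERPINB2 (ENSSSCG00000004890, chromosome 1, 157871919 to 157886525), plasminogen activator inhibitor 2, is a serpin that remains largely inside the cell. It had 66.5, 47.1 and 2.71 CPM at 2 dyne/cm2 and 58.3, 36.7 and 5.04 CPM in set 1. Donors differed far more than conditions, with replicate 3 the lowest in each of the 4 groups. The log2 fold change was -0.02 with a 95% interval of -0.64 to 0.61 (edgeR, adjusted p = 0.963), and its sign changed with the processing.

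ANXA2 (ENSSSCG00000004578, chromosome 1, 111588721 to 111635064) had 2827, 2733 and 2610 CPM at 2 dyne/cm2 and 5099, 3784 and 4752 CPM in set 1. The 3 libraries at 2 dyne/cm2 lay close together and below every other library of the series. Its log2 fold change was -0.71 (standard error 0.16, edgeR, adjusted p = 0.0312), with adjusted p of 0.0552 to 0.204 when 1 donor was left out, and -0.64 against set 2 (edgeR, adjusted p = 0.026). S100A10 (ENSSSCG00000006612, chromosome 4, 97261752 to 97272517) had 203, 214 and 238 CPM at 2 dyne/cm2 and 820, 503 and 800 CPM in set 1. Again there was no overlap, and the log2 fold change was -1.65 (standard error 0.17, edgeR, adjusted p = 0.00713), or -1.43 against set 2 (edgeR, adjusted p = 0.00541). The reads of S100A10 per read of ANXA2 went from 0.161, 0.133 and 0.168 in set 1 to 0.0717, 0.0784 and 0.0910 at 2 dyne/cm2, so that the small subunit fell more than its partner in all 3 donors. Against set 2 the log2 changes of this ratio were -0.99, -0.62 and -0.78.

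**Figure D1:**
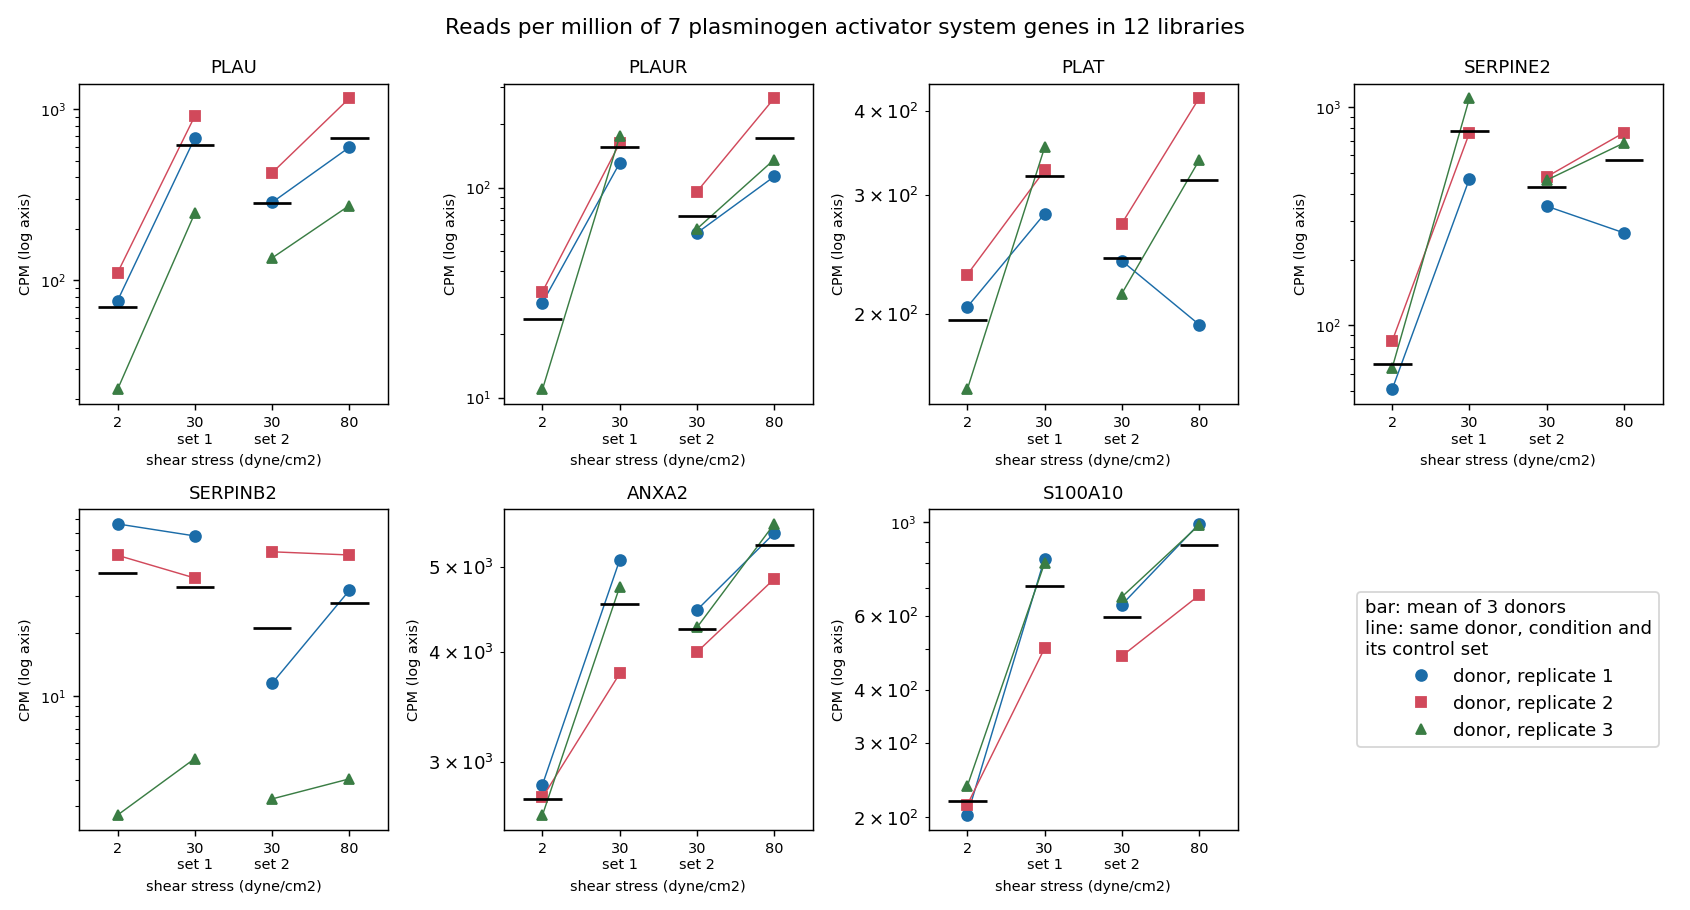
CPM (log axis) of the 7 genes in the 12 libraries by shear stress, with 1 symbol per donor, bars at the mean of 3 donors and lines joining a donor's condition to its control set. At 2 dyne/cm2 all libraries of PLAU, PLAUR, PLAT, SERPINE2, ANXA2 and S100A10 lie below set 1. For SERPINB2 replicate 3 is the lowest in every group, while replicates 1 and 2 overlap.

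At 80 vs. 30 dyne/cm2 the urokinase pair, PLAU and PLAUR, was up-regulated more than 2-fold and S100A10 rose by less, while PLAT, SERPINE2, SERPINB2 and ANXA2 did not pass the test. The 2 members up-regulated compare with 1.14% of the 11187 genes tested, and with the adjusted p alone 3 members were higher, where 4.36% of all genes were. The median log2 fold change was 0.56 over the members and -0.01 over all genes. These calls rested on the donor term: without it (no replicate block) edgeR called 0 members and 0% of all genes, DESeq2 called 0 members and 0.59% of all genes. At an unadjusted p under 0.05 edgeR without the term had 2 members (PLAUR and S100A10) and 8.3% of all genes.

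PLAU had 599, 1160 and 273 CPM at 80 dyne/cm2 and 285, 424 and 135 CPM in set 2. Each donor was at least 2.03-fold higher at 80 dyne/cm2, although the groups overlapped because replicate 3 at 80 lay below replicates 1 and 2 of the control. The log2 fold change was 1.18 (standard error 0.12, edgeR, adjusted p = 0.00394), and without the donor term it was 1.27 (standard error 0.62, edgeR, adjusted p = 0.643). PLAUR had 113, 267 and 136 CPM at 80 dyne/cm2 and 60.8, 95.7 and 63.7 CPM in set 2, with no overlap. Its log2 fold change was 1.15 (standard error 0.12, edgeR, adjusted p = 0.00439), or 1.23 without the donor term (edgeR, adjusted p = 0.517). When replicate 2, the donor with the largest rise, was left out, PLAUR stood just under the 2-fold limit (0.98, edgeR, adjusted p = 0.00829).

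S100A10 had 991, 671 and 985 CPM at 80 dyne/cm2 and 638, 482 and 666 CPM in set 2, and rose in each donor by a similar amount. The log2 fold change was 0.56 (standard error 0.10, edgeR, adjusted p = 0.0195), with an adjusted p of 0.192 without replicate 3 and 0.55 without the donor term. ANXA2 had 5468, 4851 and 5603 CPM against 4470, 4003 and 4270 CPM in set 2, a log2 fold change of 0.32 (standard error 0.14, edgeR, adjusted p = 0.192). All ANXA2 libraries at 80 dyne/cm2 lay above set 2, and 3 of the 7 members showed such a separation, against 14.9% of all genes. S100A10 per ANXA2 changed by log2 values of 0.34, 0.20 and 0.17, or 0.17, 0.06 and 0.06 against set 1.

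For PLAT and SERPINE2 the donors went different ways at 80 dyne/cm2. PLAT had 193, 418 and 338 CPM there and 240, 272 and 215 CPM in set 2, while SERPINE2 had 265, 762 and 684 CPM and 351, 479 and 462 CPM. Replicate 1 was lower at 80 dyne/cm2 for both genes and replicates 2 and 3 were higher. The log2 fold changes were 0.32 for PLAT (95% interval -0.11 to 0.75, edgeR, adjusted p = 0.316) and 0.28 for SERPINE2 (95% interval -0.19 to 0.75, edgeR, adjusted p = 0.421). Without replicate 1 they were 0.63 and 0.61 (edgeR, adjusted p = 2.1e-05 and 1.2e-04). That fit leaves out the donor that went the other way and rests on replicates 2 and 3 only, so it does not show a rise across donors. SERPINB2 had 32.0, 47.3 and 4.03 CPM at 80 dyne/cm2 and 11.5, 49.0 and 3.23 CPM in set 2, and its log2 fold change of 0.59 had a 95% interval of -0.05 to 1.22 (edgeR, adjusted p = 0.22). This value rested on replicate 1 and was 0.07 without it.

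The same nominal shear stress of 30 dyne/cm2 gave different levels of the urokinase genes in the 2 sets. PLAU was lower in set 2 than in set 1 in every donor, by a log2 value of -1.07 (standard error 0.09, edgeR, adjusted p = 0.0563), and PLAUR by -1.10 (standard error 0.13, edgeR, adjusted p = 0.0681). SERPINE2 differed by -0.77 (edgeR, adjusted p = 0.126), PLAT by -0.40 (edgeR, adjusted p = 0.171) and S100A10 by -0.22 (edgeR, adjusted p = 0.237). For ANXA2 the value was -0.08, with a 95% interval of -0.34 to 0.18, and for SERPINB2 it was -0.84, with an interval of -2.12 to 0.45, and -0.0045 without replicate 1. No member passed both thresholds in edgeR with the donor term, where 0.00896% of 11163 genes did, while 5 members had an unadjusted p under 0.05, as did 19.2% of all genes. DESeq2 with the donor term called 0.591% of all genes and 2 members, PLAU (adjusted p = 1.2e-18) and PLAUR (adjusted p = 5.0e-11). Whether slide, seeding density or another difference between the sets goes with this cannot be told apart here.

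Against set 1 the libraries at 80 dyne/cm2 gave another picture. PLAU differed by a log2 value of 0.10 (95% interval -0.23 to 0.42, edgeR, adjusted p = 0.788) and PLAUR by 0.04 (95% interval -0.46 to 0.53, edgeR, adjusted p = 0.958). SERPINE2 stood at -0.50 (95% interval -0.92 to -0.08, edgeR, adjusted p = 0.298), the opposite sign to its value against set 2, and PLAT (-0.09) and SERPINB2 (-0.27) also changed sign. S100A10 (0.33) and ANXA2 (0.23) remained higher at 80 dyne/cm2 in all 3 donors but did not pass the test. No member was called, against 0.216% of the 11128 genes tested, 2 members had an unadjusted p under 0.05, as did 13.6% of all genes, and DESeq2 called 0 members and 0.997% of all genes. In contrast, the same 4 members were down-regulated at 2 dyne/cm2 against either set, where 3.96% of 11249 genes were lower against set 2. Without the donor term 2 members were down-regulated against set 2, against 2.28% of all genes (PLAU, edgeR, adjusted p = 0.121, and PLAUR, adjusted p = 0.072, were not called).

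**Figure D2:**
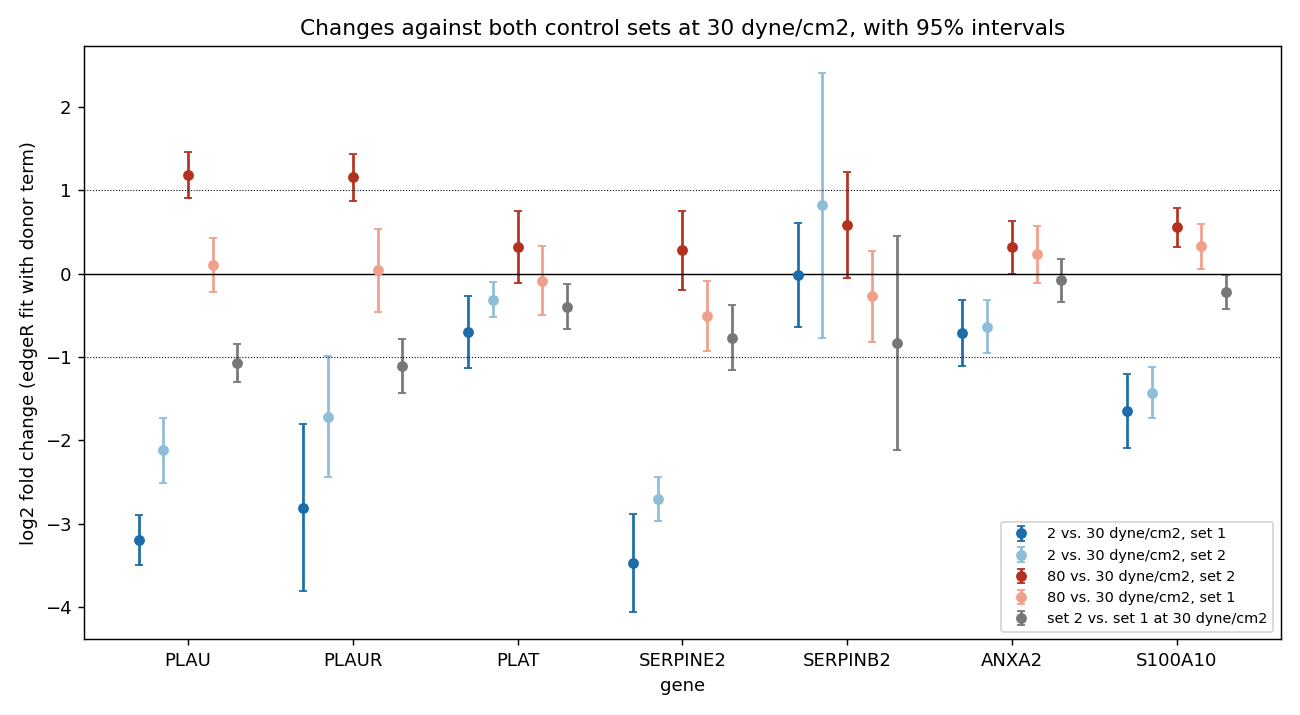
Log2 fold changes of the 7 genes (points) with 95% intervals (bars) from edgeR fits with a donor term, for each aneurysmal condition against both sets at 30 dyne/cm2 and for set 2 against set 1, with dotted lines at a 2-fold change. PLAU and PLAUR lie above the 2-fold line at 80 dyne/cm2 against set 2 and near 0 against set 1, while at 2 dyne/cm2 they lie below it against both.

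Mean levels therefore ran in the following order. PLAU had 69.8 ± 44.1 CPM (SD, n = 3) at 2 dyne/cm2, 281 ± 145 in set 2, 613 ± 339 in set 1 and 677 ± 449 at 80 dyne/cm2. PLAUR followed with 23.7 ± 11.2, 73.4 ± 19.4, 157 ± 22.9 and 172 ± 82.9 CPM in the same order. For both genes only the step above 2 dyne/cm2 passed the test between neighbours in edgeR. DESeq2 with the donor term also called both between set 2 and set 1, so this depends on the method. PLAT rose from 196 ± 37.9 CPM at 2 dyne/cm2 to 242 ± 29.1 in set 2, 316 ± 114 at 80 dyne/cm2 and 321 ± 36.2 in set 1, and no neighbours in this order passed the test. SERPINE2 had 66.6 ± 17.1 CPM at 2 dyne/cm2, well below 431 ± 69.3 in set 2, 570 ± 267 at 80 dyne/cm2 and 775 ± 314 in set 1, and no neighbours among the last 3 passed the test. SERPINB2 spanned 21.2 ± 24.4 to 38.8 ± 32.7 CPM, and no neighbours passed the test. ANXA2 and S100A10 shared 1 order, with 2723 ± 109 and 218 ± 17.7 CPM at 2 dyne/cm2, 4248 ± 234 and 595 ± 98.8 in set 2, 4545 ± 682 and 708 ± 178 in set 1 and 5307 ± 401 and 882 ± 183 at 80 dyne/cm2. Here too the lowest step was the one that passed.

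The responses at 80 and 2 dyne/cm2 were then compared in 1 model over the 12 libraries with a donor term. They differed for 6 of the 7 members, all with the higher value at 80 dyne/cm2, where 17.9% of the 11568 genes tested had an adjusted p under 0.05 in that direction. The difference was 4.36 for PLAU (log2, standard error 0.20, edgeR, adjusted p = 7.5e-06), 3.95 for PLAUR (adjusted p = 2.7e-04) and 3.76 for SERPINE2 (adjusted p = 7.9e-05). It was 2.19 for S100A10 (edgeR, adjusted p = 7.0e-05), 1.04 for PLAT (adjusted p = 0.021) and 1.02 for ANXA2 (adjusted p = 0.00127). The PLAT value did not pass without the donor term (edgeR, adjusted p = 0.0709), without replicate 2 (0.98, adjusted p = 0.105) or without replicate 3 (0.66, adjusted p = 0.235). For SERPINB2 it was 0.39, with a 95% interval of -1.11 to 1.89. This contrast holds the difference between the control sets by construction. With each condition set against the other set, PLAU gave 2.21 (edgeR, adjusted p = 1.4e-04), SERPINE2 2.20 (adjusted p = 0.00156), S100A10 1.73 (adjusted p = 3.6e-04), PLAUR 1.66 (adjusted p = 0.0238) and ANXA2 0.85 (adjusted p = 0.00527), whereas PLAT gave 0.23 (adjusted p = 0.629).

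The balance of activators and inhibitors was computed in each library as the CPM of PLAU plus PLAT over those of SERPINE2 plus SERPINB2. Gene lengths were not used here, so the size of the ratio has no meaning by itself and only libraries are compared, with no test. In a sum of reads the longer genes weigh more. The change of this ratio between libraries therefore also depends on gene lengths, and its direction can. Changes of a ratio of 1 gene to 1 gene do not. The ratio holds these 2 inhibitors only, and its direction does not extend to inhibitors outside it. The ratio was 2.39, 2.57 and 2.67 at 2 dyne/cm2 and 1.82, 1.56 and 0.545 in set 1, higher at low shear stress in all 3 donors and without overlap. The log2 change was 1.14 ± 1.01 (SD, n = 3), and 0.56 without replicate 3. At 80 dyne/cm2 the ratio was 2.66, 1.95 and 0.889, against 1.45, 1.32 and 0.750 in set 2, a log2 change of 0.56 ± 0.32 (SD, n = 3) and higher in 3 of 3 donors. It was also higher in all donors against the other set, by 1.17 at 2 and 0.53 at 80 dyne/cm2.

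The rise at 2 dyne/cm2 came about while both activators fell, because the summed inhibitor reads fell by more. PLAU per SERPINE2 moved little there, with within-donor log2 changes of 0.04, 0.12 and 0.67, whereas PLAT per SERPINE2 increased by 2.74, 2.65 and 2.91. Against set 2 those changes were 0.88, 0.56 and 0.30 for PLAU per SERPINE2 and 2.56, 2.24 and 2.38 for PLAT per SERPINE2. Under supra-high shear stress they were 1.48, 0.78 and 0.46 for PLAU per SERPINE2 and 0.09, -0.05 and 0.09 for PLAT per SERPINE2. Against set 1 this contrast was smaller, with 0.64, 0.34 and 0.83 for PLAU per SERPINE2 and 0.28, 0.35 and 0.62 for PLAT per SERPINE2. The mix of the activators shifted too: PLAU per PLAT changed by -2.70, -2.53 and -2.24 at 2 dyne/cm2 and by 1.39, 0.83 and 0.36 at 80 dyne/cm2. The former were -1.68, -1.69 and -2.08 with the other set as control, whereas the latter were 0.36, -0.01 and 0.21, and set 2 itself differed from set 1 by -1.02, -0.85 and -0.15. PLAU per PLAUR had no common direction among donors in either comparison. With the other set as control it was lower in all donors at 2 dyne/cm2 (-0.80, -0.36 and -0.02). At 80 dyne/cm2 it again had no common direction (0.03, -0.37 and 0.51).

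**Figure D3:**
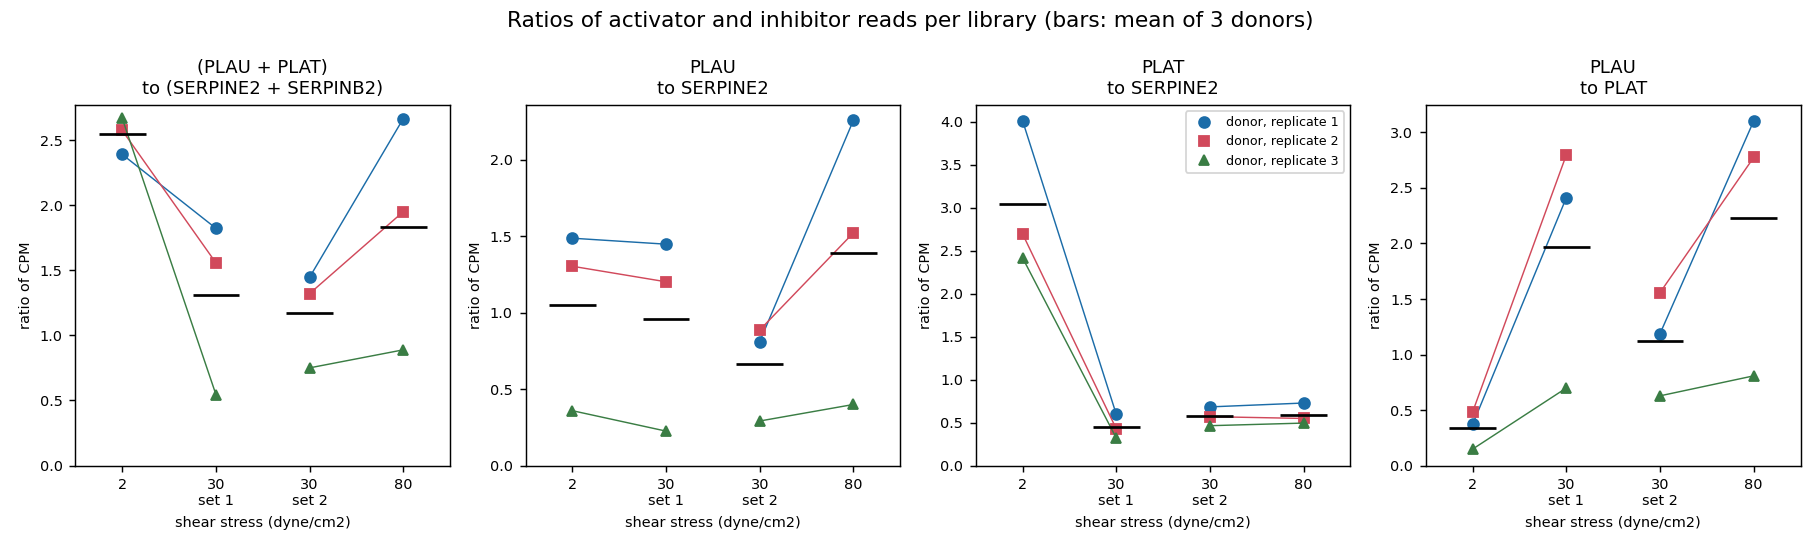
Ratios of activator and inhibitor reads (CPM over CPM, linear axes from 0) in the 12 libraries, with 1 symbol per donor, bars at the mean of 3 donors and lines joining a donor's condition to its control set. The first ratio is higher at 2 dyne/cm2 than in set 1 in all donors, and the last, PLAU to PLAT, is lower in all donors.

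Other genes of the plasminogen system were read from a list of 23, of which 22 had a row in the table and 10 passed the filter at 2 and 9 at 80 dyne/cm2. LRP1, the uptake receptor for serpin complexes, had no row with that symbol. Plasminogen itself (PLG), plasma kallikrein (KLKB1) and HRG had 0 counts in all libraries. In the low shear stress comparison 1 gene was up-regulated and 0 down-regulated past both thresholds, against 5.06% and 4.54% of all genes (9.6% in either direction). With the adjusted p alone 3 were higher and 4 lower, against 13.4% and 12.4% of all genes. One of the 3, MST1, had under 2 CPM in every library and passed the filter through the group at 2 dyne/cm2 alone, so nothing is read from it. The median log2 fold change of the list was -0.11, against 0.00 over all genes. Under supra-high shear stress edgeR and DESeq2 with the donor term called 0 of them, against 2.2% and 2.11% of all genes, 4 had an unadjusted p under 0.05, as did 26.1% of all genes, and with the adjusted p alone 2 were higher and 2 lower, against 4.36% and 4.04% of all genes. The median there was 0.01. Against the other set edgeR called 0 of them past both thresholds at 2 dyne/cm2, where 867 of the 11249 genes tested were called. At 80 dyne/cm2 it called 0 against the other set, where 0.216% of all genes were called. There 2 had an unadjusted p under 0.05, as did 13.6% of all genes.

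The gene called at 2 dyne/cm2 was PDGFC, a growth factor activated by tissue plasminogen activator. It had 11.2, 55.8 and 225 CPM at 2 dyne/cm2 and 6.64, 34.9 and 67.4 CPM in set 1, so that donors differed strongly and each was higher at low shear stress. The log2 fold change was 1.09 (standard error 0.24, edgeR, adjusted p = 0.0317), and without the donor term the adjusted p was 0.447. The value at 80 dyne/cm2 was -0.75 (standard error 0.13, edgeR, adjusted p = 0.0192). VLDLR, an endocytic receptor that clears activator and inhibitor complexes, had log2 fold changes of -0.93 (edgeR, adjusted p = 0.0251) and 0.59 (adjusted p = 0.0139), and ENO1, a glycolytic enzyme that also binds plasminogen at the cell surface, of -0.75 (adjusted p = 0.0419) and 0.48 (adjusted p = 0.0466).

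Of the remaining genes of the list with many reads, IGF2R, the mannose 6-phosphate receptor, fell at 2 dyne/cm2 (-0.48, edgeR, adjusted p = 0.0349) and MRC2, a collagen uptake receptor that associates with the urokinase receptor, rose (0.47, adjusted p = 0.0428). The plasminogen receptor PLGRKT fell (-0.55, adjusted p = 0.0328). SERPINI1, neuroserpin, an inhibitor of tissue plasminogen activator, fell at 80 dyne/cm2 (-0.76, edgeR, adjusted p = 0.0283). All of these were smaller than 2-fold. LRPAP1 and PDGFD, also on the list, passed in neither comparison nor against the other set. Their values at 2 dyne/cm2 were 0.12 (edgeR, adjusted p = 0.290) and 0.31 (adjusted p = 0.209). At 80 dyne/cm2 they were 0.01 (edgeR, adjusted p = 0.960) and -0.31 (adjusted p = 0.463). Against the other set VLDLR gave -0.43 (edgeR, adjusted p = 0.0392) at 2 and 0.07 (adjusted p = 0.881) at 80 dyne/cm2, and ENO1 -0.60 (adjusted p = 0.0383) and 0.31 (adjusted p = 0.394). PDGFC gave 0.87 (edgeR, adjusted p = 0.042) and -0.55 (adjusted p = 0.197). IGF2R (-0.42, adjusted p = 0.0466) and PLGRKT (-0.45, adjusted p = 0.0312) passed at 2 dyne/cm2, while MRC2 (0.36, adjusted p = 0.0875), and SERPINI1 at 80 dyne/cm2 (-0.53, adjusted p = 0.141), did not. Without the donor term ENO1 (edgeR, adjusted p = 0.0432) and VLDLR (adjusted p = 0.0337) still passed at 2 dyne/cm2, whereas the other genes of the list named here did not, and at 80 dyne/cm2 the adjusted p of the 4 genes that had passed was 0.418 to 0.916.

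**Figure D4:**
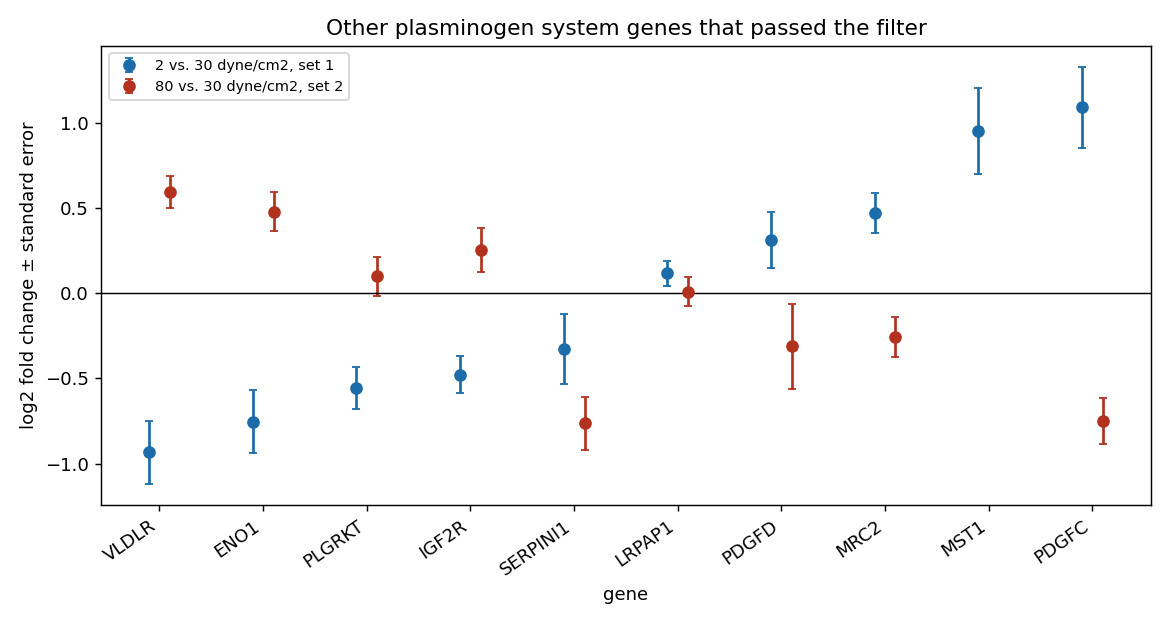
Log2 fold changes (points) with standard errors (bars) from edgeR fits with a donor term for the other plasminogen system genes that passed the filter, at 2 dyne/cm2 against set 1 and at 80 dyne/cm2 against set 2. PDGFC has the highest value at 2 dyne/cm2 (1.09) and VLDLR the lowest (-0.93), and MST1 was not tested at 80 dyne/cm2.

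The share of the variance of log2 CPM over the 12 libraries that went with the donor was 27.5% for PLAU, 18.8% for PLAT and 5.18% to 7.64% for PLAUR, SERPINE2, ANXA2 and S100A10. For SERPINB2 it was 87.4%, against 3.59% for the 4 groups. After removal of each donor's mean, the members other than SERPINB2 and PLAT varied closely together, as a description over 12 libraries that share donors and controls. Pearson's r was 0.99 for ANXA2 with S100A10, 0.98 for PLAU with PLAUR and 0.96 for PLAU with SERPINE2. PLAT had r of 0.70 to 0.88 with these 5 genes, and SERPINB2 of -0.10 to 0.22 with the other 6.

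By the same measure, the genes most like each member were sought among 8625 genes with at least 5 CPM on average. For PLAU they were FRMD4B, MAP2K1 and PGM2 (r of 0.99 to 1.00), and 218 genes (2.53%) had r above 0.95. For PLAUR they were HK1, ARPC5L and GJC1 (0.99 each, 183 genes above 0.95), and for SERPINE2 DSEL, ECSCR and DLST (0.99 each, 149 genes). The patterns of ANXA2 and S100A10 were the most widely shared, with 290 and 274 genes above 0.95, led by PPP3CA, UPK1B and NHERF2 for ANXA2 and by ATP2B4 and ITGB3 for S100A10. For PLAT, SHISA5, CKM and CFLAR had r of 0.95 to 0.96 and 2 genes lay above 0.95. For SERPINB2 none did, and TRPA1 and PFKFB3 had r of 0.82.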

How the data were processed

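The authors deposited raw counts of reads per gene, not normalized. Per the labels and the methods, single-end reads were mapped to Sscrofa11.1 with STAR, reads with more than one location were discarded, and reads over the merged exons of each gene were counted with featureCounts (version 1.4.6 in the submitters' processing notes). Symbols came from a table of Ensembl IDs and positions from RefSeq on Sscrofa11.1. CPM used library sizes scaled by TMM over 12 libraries. A gene was tested if 3 or more of the libraries compared reached 1 CPM, in R 4.3.3 with edgeR 4.0.16 (quasi-likelihood test, donor term, Benjamini-Hochberg adjustment over all genes tested). Calls needed an adjusted p under 0.05 and at least a 2-fold change, as in the study. DESeq2 1.42.0 was an alternative. The procedure was tested on simulated data. Standard errors were derived from the fold change and its F statistic, and 95% intervals are for single genes, without adjustment.

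Each replicate number goes with 1 letter (A, C or D) in the source names of the labels, which was read as the donor. After removal of group means, r across 11568 genes was 0.67 to 0.88 in the 18 pairs of libraries from 1 donor and -0.55 to -0.19 between libraries of different donors and groups. Removing the mean of 3 donors pushes r between donors below 0 by construction, so the negative sign is not a result. Per the methods, cultures were matched by donor and passage, so the donor term is part of the main design. The genes, lists, tests and rule for naming genes were chosen with earlier results of these data known. Named genes are the 7 members, the listed genes with an adjusted p under 0.05 or many reads, and the 3 genes most like each member. Some genes under this rule, 1 of them on the list, are not reported here, and counts over the list leave it out. No gene, promoter or protein sequence was used here. With 3 donors per group, standard errors, SD and p-values describe these 3 donors only.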

Additional observations from a re-analysis of the deposited data

Results flagged for a closer look

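The responses at 80 and 2 dyne/cm2 differed by a test of the difference itself for 6 members (edgeR quasi-likelihood test with a donor term). The difference (log2, 80 minus 2 dyne/cm2, each against its control set) was 4.36 for PLAU, 3.95 for PLAUR, 3.76 for SERPINE2, 2.19 for S100A10, 1.04 for PLAT and 1.02 for ANXA2. The PLAT difference did not pass without replicate 2 or without replicate 3 (0.98 and 0.66), nor without the donor term. These differences hold the difference between the control sets. With each condition against the other set they were 2.21 for PLAU, 1.66 for PLAUR, 2.20 for SERPINE2, 1.73 for S100A10 and 0.85 for ANXA2. PLAT then gave 0.23 and did not pass. Samples that stand apart within a group were not looked for, since each group has 3 libraries.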

How the results depend on the processing

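At 2 dyne/cm2 4 members passed both thresholds under every single change of setting run except the adjusted p alone, which gave 6. Against set 2 and without the replicate block together, 2 passed. That setting and the other set for the listed genes were added after seeing the data. Without replicate 1, 2 or 3 in turn there were 4 each time. At 80 dyne/cm2 the 2 calls became 0 with no replicate block (edgeR, and DESeq2 added after seeing the data) and 0 against the other set, and 1 with dispersion from 12 libraries. Leaving out 1 donor gave 1 to 2. Between the sets at 30 dyne/cm2, 0 members became 2 with DESeq2, 2 with no filter and 1 with DESeq2 without the replicate block, and 0 to 2 when 1 donor was left out. For the difference of responses 5 or 6 members passed under all alternatives. Of the other plasminogen system genes, 1 at 2 dyne/cm2 became 0 with no replicate block, 0 against the other set and 7 with the adjusted p alone, and 0 at 80 dyne/cm2 became 4 with the adjusted p alone. Over all genes, the calls at 2 dyne/cm2 (1078) ranged from 635 with no replicate block to 1299, or 2895 with the adjusted p alone. Against set 2 and without the replicate block together there were 411. Those at 80 dyne/cm2 (246) ranged from 0 with no replicate block, 24 against the other set, 66 with DESeq2 without the block and 132 to 286 without 1 donor to 940 with the adjusted p alone. Between the sets (1 call) they were 66 with DESeq2, 46 with no filter, 9 with DESeq2 without the block, 2 with the adjusted p alone and 0 to 62 without 1 donor. For the difference of responses (4294) they ranged from 1746 with no replicate block to 4544.

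Of 308 member values under alternatives, 276 kept direction and call. SERPINB2 at 2 dyne/cm2 reversed with no replicate block (0.23), with DESeq2 without it (0.24), without replicate 3 (0.29, against -0.24 without replicate 2), against set 2 (0.82) and with dispersion from 12 libraries (0.007), and its difference of responses reversed to -1.07 with each other set. At 80 dyne/cm2 against set 1 PLAT (-0.087), SERPINE2 (-0.50) and SERPINB2 (-0.27) reversed. The mean log2 change of the ratio at 2 dyne/cm2 was 2.77 for PLAT to SERPINE2 and ran from 0.56 to 1.51 without 1 donor. At 80 dyne/cm2 it was 0.90 for PLAU to SERPINE2, 0.043 for PLAT to SERPINE2 and 0.40 to 0.72 without 1 donor. The ratio per kilobase was not run, since no exon lengths were used. Apart from what each alternative's construction shows, the cause was not tested. SERPINB2 in replicate 3 rested on 82 to 168 counts, and no other member had under 332 counts in a library.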
